A study of Mus musculus with 15 samples.

Results

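Chromatin isolation by RNA purification (ChIRP) recovers the DNA that lies beside an RNA by fishing the RNA out of cross-linked chromatin with biotinylated DNA oligos. The peak lists described here come from the control arm of such an experiment, in which non-specific control (NSC) oligos, not aimed at the RNA under study, were put on brain chromatin of a WT and of a *Snord116del* mouse. The WT sample was adult brain of strain C57BL/6J, and the *Snord116del* sample was adult brain of strain B6(Cg)-Snord116tm1.1Uta/J, labelled *Snord116del* (+/-), so that 1 of its 2 copies of the locus is deleted, which by the breeding described is the paternal one. According to the methods of the study 1 hemisphere was used per ChIRP, and peaks of each library were called against input DNA of WT brain. Each genotype has 1 NSC library, so genotype and library cannot be told apart here, and no test between genotypes was possible. Members were all peaks on autosomes 1 to 19 in the deposited WT NSC and *Snord116del* NSC lists: 2006 of the 3648 WT peaks and 3205 of the 3418 *Snord116del* peaks, together 5211 of the 90238 autosomal peaks in the 5 ChIRP lists of the series. Chromosomes X and Y held 1372 WT peaks and 190 *Snord116del* peaks and were set aside. So were the 270 WT and 23 *Snord116del* peaks on sequences other than the autosomes, X and Y. The other lists were made with oligos against *116HG*, the spliced host transcript of the *Snord116* small nucleolar RNAs (snoRNAs), from WT brain (replicates 1 and 2) and *Snord116del* brain.

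A ChIRP library made with control oligos gives the background of the method, that is, DNA recovered without the RNA of interest. Background of sequencing assays is known to collect in repeated sequence, such as tandem repeats, ribosomal RNA genes and transposons. Promoters of many mammalian genes are CpG islands, stretches rich in C, G and the CpG dinucleotide that are elsewhere rare in the genome. The *Snord116* locus lies in the imprinted Prader-Willi domain, where multiple genes are read from the paternal chromosome.

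The sequences below are examples: the *Snord116del* peak at a site where peaks of both lists overlapped, strong peaks of each list away from any peak of the other, and WT NSC peaks among the *Snord116* copies. They were picked by fold and place and are not typical of their lists. The *Snord116del* peaks among them were 152, 142 and 241 bp wide with 53.3%, 49.3% and 50.2% GC. That list had medians of 399 bp and 61.1%. The sequences are read 5′ to 3′ on the plus strand of NCBIM37, the assembly of mm9, and the capitals mark the 32 central bases whose copies were counted in the genome.
Snord116del NSC, overlapping 5S rRNA gene n-R5s194, chr3:4339031-4339182: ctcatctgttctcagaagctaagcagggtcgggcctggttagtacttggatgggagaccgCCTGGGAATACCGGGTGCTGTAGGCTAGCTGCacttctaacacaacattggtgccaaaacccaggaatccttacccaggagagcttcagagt
WT NSC, intron of Fam120a, chr13:49019904-49020070: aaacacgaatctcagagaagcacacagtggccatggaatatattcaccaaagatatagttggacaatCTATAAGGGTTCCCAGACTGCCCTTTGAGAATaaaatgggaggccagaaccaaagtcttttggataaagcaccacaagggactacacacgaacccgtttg
Snord116del NSC, intron of Atf2, chr2:73705989-73706130: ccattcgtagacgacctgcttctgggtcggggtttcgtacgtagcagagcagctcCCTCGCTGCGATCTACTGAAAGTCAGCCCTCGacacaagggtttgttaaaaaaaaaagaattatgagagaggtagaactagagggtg
Snord116del NSC, intergenic, nearest start Cd209a, chr8:3754362-3754561: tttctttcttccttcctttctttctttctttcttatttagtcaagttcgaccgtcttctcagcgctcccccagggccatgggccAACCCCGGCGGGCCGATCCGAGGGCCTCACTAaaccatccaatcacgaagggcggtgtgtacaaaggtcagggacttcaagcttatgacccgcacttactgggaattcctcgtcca
WT NSC, among the Snord116 copies, chr7:67047341-67047492: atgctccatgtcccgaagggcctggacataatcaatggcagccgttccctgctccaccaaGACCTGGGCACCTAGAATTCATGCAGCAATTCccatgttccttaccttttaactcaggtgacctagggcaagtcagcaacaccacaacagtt
WT NSC, among the Snord116 copies, chr7:66936653-66936852: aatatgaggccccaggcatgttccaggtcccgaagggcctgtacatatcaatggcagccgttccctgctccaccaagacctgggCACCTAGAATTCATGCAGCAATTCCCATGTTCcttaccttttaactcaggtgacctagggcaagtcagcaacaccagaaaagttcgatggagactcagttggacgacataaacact
The central 32 bases of the first 4 sequences occurred once in the reference. The WT peak at n-R5s194, chr3:4339044-4339114, lies within the stretch shown, and its own central bases occurred 48 times. The gene ends at 4339116, so the stretch shown runs past it. Those of the *Snord116* peaks occurred 23 and 20 times, and all of the 22 and 19 other copies were within 5 Mb.

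The deleted locus itself was examined first. Over the 139 kb that hold the 27 annotated SNORD116 snoRNA copies, chr7:66928831-67068008, the WT NSC list had 8 peaks (0.399% of its autosomal peaks), with folds over input of 20.33 to 27.63. The *Snord116del* NSC list had 0 of 3205 there, which allows a share of up to 0.0936%. In the lists made with *116HG* oligos the same stretch held 30 peaks (0.0402%) in WT replicate 1 and 61 (0.662%) in replicate 2. It held 0 in *Snord116del* brain, which allows up to 0.253%. The number of peaks in WT NSC, 8, was thus below that of both WT *116HG* lists. Its share lay between theirs, but a share depends on the length of its list. WT NSC has 2006 autosomal peaks, replicate 1 has 74621 and replicate 2 has 9221. The study describes peaks in this region as absent from its NSC samples. By quantitative PCR it reports *Snord116* DNA retrieved with *116HG* but not with NSC oligos. The centres of the 8 WT NSC peaks lay outside annotated genes, and 11 of the SNORD116 and SNORD115 copies, all of them SNORD116, were within 2 kb of a peak. No *Snord116del* NSC peak was within 2 kb of any of the 164 copies, which allows up to 1.83%. None of the 9 other genes listed for the domain, among them *Snrpn*, *Ndn*, *Magel2* and *Ube3a*, was near a peak of either list, which allows up to 33.3%.

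WT NSC peaks were short and had the base composition of the genome at large, and *Snord116del* NSC peaks were wide and rich in G and C. The median width was 134 bp in WT (quartiles 112 and 149, widest 258 bp) and 399 bp in *Snord116del* (quartiles 266 and 586, widest 1588 bp). The median GC content was 40.8% in WT, with quartiles of 34.9% and 47.3%, where all autosomal bases had 41.9%. In *Snord116del* it was 61.1%, with quartiles of 56.6% and 64.8%, so the lower quartile of *Snord116del* lay above the upper quartile of WT. More than 50% GC was found in 302 WT peaks (15.1%, 95% exact binomial interval 13.5 to 16.7) and in 2994 *Snord116del* peaks (93.4%, 92.5 to 94.3). These intervals, and those that follow, cover counting error within 1 library only. The study kept only peaks above a cutoff of fold over input, and the lowest values were 20.04 in WT and 20.01 in *Snord116del*. The deposited fold over input, a ratio, had a median of 27.9 in WT and 22.8 in *Snord116del*. Its values recurred at wider steps in WT, such as 25.14, 31.43 and 37.72, than in *Snord116del*, such as 21.02, 22.77 and 24.52. The folds of both lists, here and below, may therefore not be on a common scale, which was not tested.

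**Figure D1:**
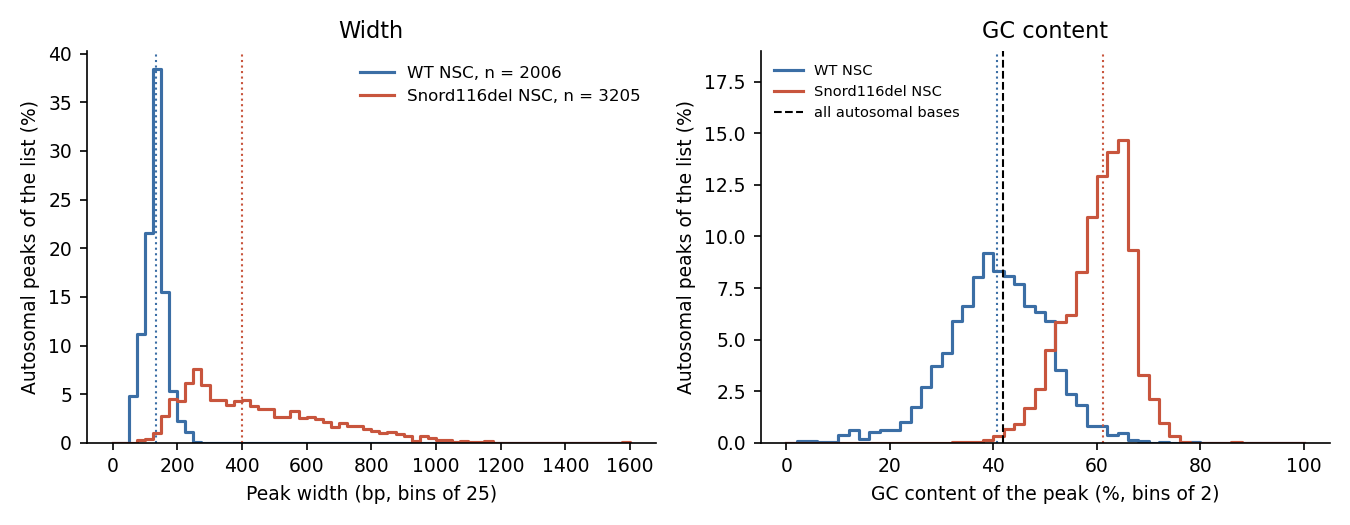
Width (left, bp) and GC content (right, %) of the autosomal peaks, as the share of each list per bin, for WT NSC (blue) and *Snord116del* NSC (red). Dotted lines mark the medians (134 and 399 bp, 40.8% and 61.1%), and the dashed line marks the GC content of all autosomal bases, 41.9%; the WT curve peaks close to that line and the *Snord116del* curve lies to its right.

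The difference in GC content was present in every class of peak that was examined. Among peaks whose central 32 bases occur once in the reference, the median was 37.5% in WT (n = 372) and 60.3% in *Snord116del* (n = 1537). Among exon peaks it was 43.6% (n = 61) and 62.2% (n = 755), and among intergenic peaks 40.9% (n = 1216) and 61.5% (n = 1420). In a fixed window of 200 bp around each centre, which removes the difference in width, the medians were 41.5% and 63.5%. CpG dinucleotides were also closer to their expected number, with a median observed over expected ratio of 0.146 in WT and 0.553 in *Snord116del*. The lists made with *116HG* oligos gave medians of 47.8% and 35.0% for the WT replicates and 61.6% for *Snord116del* brain. Both *Snord116del* libraries were thus at the high end whichever oligos were used, and the lists of the WT libraries spanned 35.0% to 47.8%.

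WT NSC peaks lay in repeated sequence more often. The central 32 bases occurred more than once in the reference, on either strand, in 1634 WT peaks (81.5%, 79.7 to 83.1) and in 1668 *Snord116del* peaks (52.0%, 50.3 to 53.8). Among the peaks at or above the median fold of their list these shares were 74.8% and 64.7%, a difference (*Snord116del* minus WT) of -10.1 percentage points in place of -29.4. Without the peaks that held a word common in *Snord116del*, described with those words, they were 81.4% and 33.6%, a difference of -47.9. In the lists made with *116HG* oligos the share was 17.6% and 69.0% in the WT replicates and 70.5% in *Snord116del* brain. With those oligos the share was thus not higher in WT. The kind of repetition differed between the NSC lists as well. Low copy numbers were the commonest in WT, with 27.2% of peaks at 2 to 10 copies and 23.6% at 11 to 100, against 12.0% and 10.3% in *Snord116del*. More than 1000 copies were found for 14.5% of WT peaks (13.0 to 16.1) and 17.4% of *Snord116del* peaks (16.1 to 18.7). In WT the copies were more often local. Among peaks with several copies, most of the other copies were within 5 Mb for 39.6% of WT and 13.0% of *Snord116del* peaks, and no copy was on another chromosome for 33.6% and 11.4%. The sources used here do not give how reads that match several places were treated, so the position of a peak in such sequence is one of several possible.

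**Figure D2:**
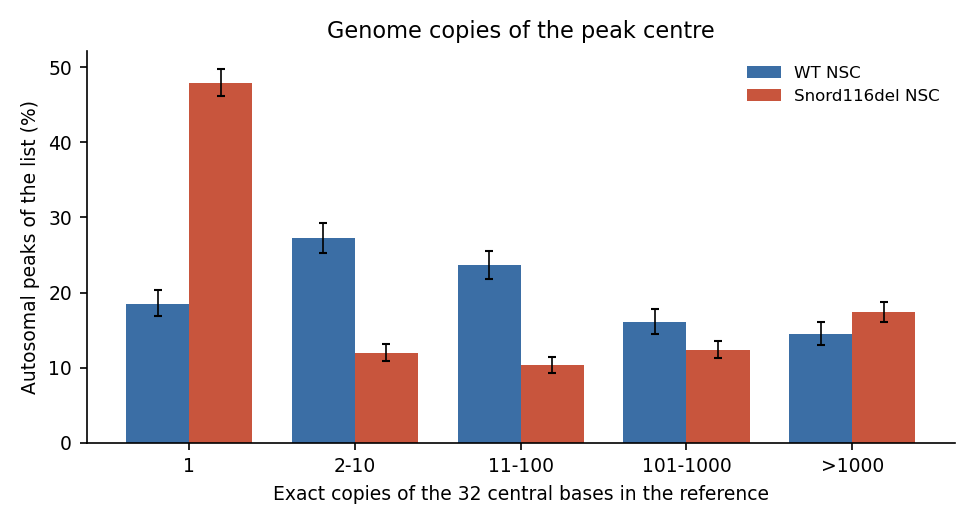
Share of the autosomal peaks of each list (vertical axis, %) by the number of exact copies of their 32 central bases in the reference (horizontal axis), for WT NSC (blue) and *Snord116del* NSC (red), with 95% exact binomial intervals. Single-copy centres make up 18.5% of WT and 48.0% of *Snord116del* peaks, and WT is the higher in the classes from 2 to 1000 copies.

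Short tandem repeats, in which a unit of 1 to 6 bases follows itself without a mismatch, were in WT mostly runs of A or T. A run of at least 20 bases was present in 279 WT peaks (13.9%, 12.4 to 15.5) and in 215 *Snord116del* peaks (6.71%, 5.87 to 7.63). The unit A, which stands for T on the other strand, accounted for 141 WT and 16 *Snord116del* runs. The unit AC, the commonest dinucleotide repeat of mammalian genomes, accounted for 43 and 58 and was thus about as frequent per peak in both lists (2.14% and 1.81%). The unit AAAG was found in 16 WT peaks and AGGC in 17 *Snord116del* peaks. A wider peak has more room for a run: in the fixed window of 200 bp the shares were 15.8% in WT and 3.81% in *Snord116del*. With X and Y included they were 9.24% and 6.51%, and without the peaks that held a common *Snord116del* word 13.9% and 9.27%, and the difference, *Snord116del* minus WT, was -7.20 percentage points and ranged from -12.5 to -2.73 over the alternatives.

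A few sequences made up a large part of the *Snord116del* NSC list. They were found as words of 32 bases, by taking the word present in the most peaks, setting those peaks aside and repeating this for 4 words per list, so their share of the list they were taken from is a description. Word 1 was present in 521 of the 3205 *Snord116del* NSC peaks (16.3%, 15.0 to 17.6), word 2 in 185, word 3 in 178 and word 4 in 425. Words 1 and 4 occurred together in 287 peaks, and words 3 and 4 share a run of 22 bases when 1 of them is read on the other strand, while word 2 shared no peak with words 1, 3 or 4. At least 1 of the 4 was present in 1015 peaks (31.7%, 30.1 to 33.3). The reference holds word 1 at 5694 places, word 2 at 1405, word 3 at 1810 and word 4 at 5707, and the words had 62.5%, 75%, 43.8% and 43.8% GC. As repeats with copies throughout the genome they are described without their letters. No repeat annotation was used here, so these repeats are left without a name.

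The same words were then counted in the lists that had no part in choosing them. In the *Snord116del* library made with *116HG* oligos, 533 of 1185 autosomal peaks (45.0%, 42.1 to 47.9) held at least 1 of them. Because 603 of those 1185 peaks (50.9%) directly overlapped a *Snord116del* NSC peak, this list is not independent of the one that gave the words. In the WT NSC list 4 of 2006 held at least 1 word (0.199%, 0.0544 to 0.510). In the WT *116HG* lists 0 of 74621 peaks of replicate 1 did, which allows up to 0.00402%, and 7 of 9221 of replicate 2 (0.0759%, 0.0305 to 0.156). The words were therefore frequent in both lists from *Snord116del* brain and rare in the 3 lists from WT brain, under either set of oligos. By the read numbers in the methods of the study, the aligned share was also higher in both *Snord116del* libraries than in those 3. Genotype and this difference between libraries cannot be told apart here. With the search limited to the 200 central bases of each peak, because *Snord116del* peaks are wider, the shares of the *Snord116del* lists were 24.1% (NSC) and 34.2% (*116HG*), and those of the WT lists were as above.

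The peaks with a word and the other *Snord116del* NSC peaks lay in different places. Of the 1015 with a word, 72.8% were intergenic and 1 had its centre in an exon, and the median distance to a gene start was 61808 bp. Of the 2190 without one, 31.1% were intergenic, 34.4% were in exons and 32.4% were within 1 kb of a start, with a median distance of 6033 bp. The GC content was high in both, with medians of 63.5% and 60.1%. The WT words were present in few peaks of their own list: a run of T in 88 peaks (4.39%), the GT repeat in 36, a word with 33488 genome copies in 23 (1.15%) and the TCTT repeat in 16. The run of T was in 17.0% of the peaks of WT *116HG* replicate 2, in 4.79% of replicate 1, and in 2 of the *Snord116del* NSC and 1 of the *Snord116del* *116HG* peaks.

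A larger share of the WT NSC peaks than of the *Snord116del* NSC peaks was crowded into a few stretches of megabase size. Chromosome 4 held 433 of the WT peaks (21.6%), 2.78 per Mb, where the other autosomes had 0.308 to 1.29 per Mb. *Snord116del* peaks ranged from 0.865 per Mb on chromosome 13 to 1.85 on chromosome 8. The 3 fullest windows of 1 Mb held 336 WT peaks (16.7%, 15.1 to 18.5) and 89 *Snord116del* peaks (2.78%, 2.24 to 3.41). In all, the 2006 WT peaks fell into 971 windows and the 3205 *Snord116del* peaks into 1533. A longer list can meet more windows through its size, so these numbers of windows do not show a wider spread. Within 10 kb of another peak of the same list were 31.4% of WT (29.4 to 33.5) and 23.0% of *Snord116del* peaks (21.6 to 24.5). At 1 kb the order was the other way, with 12.1% (10.7 to 13.6) and 16.2% (14.9 to 17.5). A gap in the reference assembly was within 200 kb of 21.4% of WT (19.7 to 23.3) and 4.09% of *Snord116del* peaks (3.43 to 4.83).

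**Figure D3:**
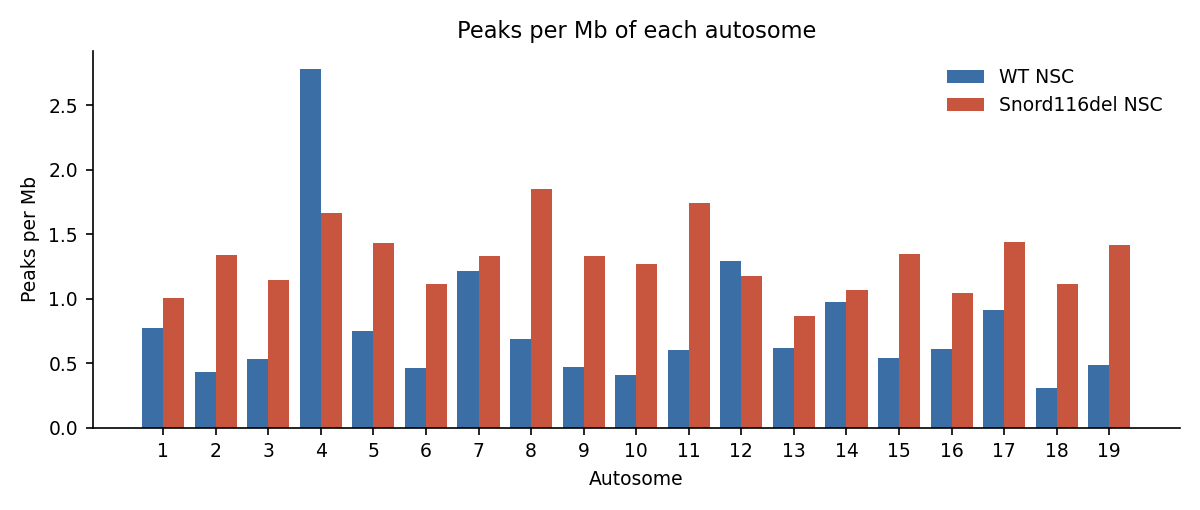
Peaks per Mb (vertical axis) on each autosome (horizontal axis) for WT NSC (blue) and *Snord116del* NSC (red), 1 library each and no error bars. Chromosome 4 stands out in WT at 2.78 per Mb, and *Snord116del* is the higher on every autosome except 4 and 12. These values are not scaled to the length of the list, 2006 and 3205 peaks. As a share of its list, WT is the higher on chromosomes 1, 4, 7, 12, 13, 14 and 17.

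The crowded stretches, and the genes named in them, were chosen after their number of peaks was seen and are described without a test. The fullest, chr4:145000001-148000000, held 329 WT NSC peaks, 16.4% of that list, and 6 *Snord116del* NSC peaks, 0.187%. It is annotated with clustered zinc finger genes such as *Zfp534* and *Zfp600*, which belong to a large family of DNA-binding proteins, and with the long noncoding genes *Gm16889*, *Gm17317*, *Gm17452* and *Gm17609*. In the same 3 Mb lay 0.169% of the WT *116HG* replicate 1 list, 1.44% of the replicate 2 list and 1 peak of *Snord116del* *116HG* (0.0844%). On chr12:20000001-25000000 there were 4 *Snord116del* NSC peaks (0.125%), beside 5.03% of the WT NSC list. On the whole of chr7:15000001-24000000, which includes vomeronasal receptor genes, for pheromone receptors, there were 77 and 17. Not all of these peaks lay at such genes. Of the 22 WT peaks on chr7:15000001-16000000, 1 was within 2 kb of a vomeronasal receptor gene. On chr1:84000001-88000000, with *Sp140* and *Sp100*, genes for nuclear body proteins, there were 58 and 4. In the 2 fullest windows of chromosome 4 the median number of genome copies of a WT peak centre was 5 and 4.

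*Snord116del* NSC peaks had smaller crowds. The fullest window was chr8:126000001-127000000, with 42 *Snord116del* and 4 WT NSC peaks, where the annotation places an array of 5S rRNA genes (n-R5s genes); the 5S RNA is a part of the large ribosomal subunit. *Snord116del* *116HG* had 30 peaks in that window (2.53% of its list), and the WT *116HG* lists had 50 (0.0670%) and 8 (0.0868%). The next fullest, chr10:79000001-81000000, held 47 *Snord116del* NSC peaks and 1 WT peak, and chr17:56000001-57000000 held 16 and 0. WT *116HG* replicate 1 had 401 peaks (0.537% of its list) in the first of these and 143 (0.192%) in the second, replicate 2 had 8 and 7, and *Snord116del* *116HG* had 7 and 1. In these windows the median number of genome copies of a *Snord116del* peak centre was 1, against 49 in the chromosome 8 window, and the peaks lay at genes such as *Eef2*, *Tjp3*, *Efna2* and *Chaf1a*.

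Each peak was assigned by its centre base to an exon, an intron or intergenic sequence of the GENCODE annotation. In WT 3.04% of peaks (2.33 to 3.89) were in exons, 36.3% in introns and 60.6% between genes, where the autosomal bases themselves divide into 3.45%, 38.5% and 58.0%. In *Snord116del* 23.6% (22.1 to 25.1) were in exons, 32.1% in introns and 44.3% between genes. WT peaks were thus divided much as the genome is, and the exon share of *Snord116del* was above that of the bases. At or above the median fold of each list the intergenic shares were 59.2% and 52.7%, a difference of -6.56 percentage points in place of -16.3, and the exon shares were 3.29% and 16.9%.

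Of the 755 exon peaks of *Snord116del*, 464 (61.5%) were in coding sequence, 147 (19.5%) in a 5′ UTR, 57 (7.55%) in a 3′ UTR and 87 (11.5%) in noncoding exons. Of the 61 in WT, 25 were in coding sequence, 24 in noncoding exons, 12 in a 3′ UTR and 0 in a 5′ UTR, which allows up to 4.92%. A gene start was within 1 kb of 88 WT peaks (4.39%, 3.53 to 5.38) and 714 *Snord116del* peaks (22.3%, 20.8 to 23.8), where 2.67% of autosomal bases are that close. Between 5 and 50 kb from the nearest start lay 55.1% of WT and 36.9% of *Snord116del* peaks. Single-copy *Snord116del* peaks that held none of the words were nearest to genes: 44.9% of these 1455 peaks were in exons and 39.4% within 1 kb of a start. Of the single-copy WT peaks, 4.03% (2.27 to 6.56) were in exons and 3.76% (2.07 to 6.23) within 1 kb of a start.

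**Figure D4:**
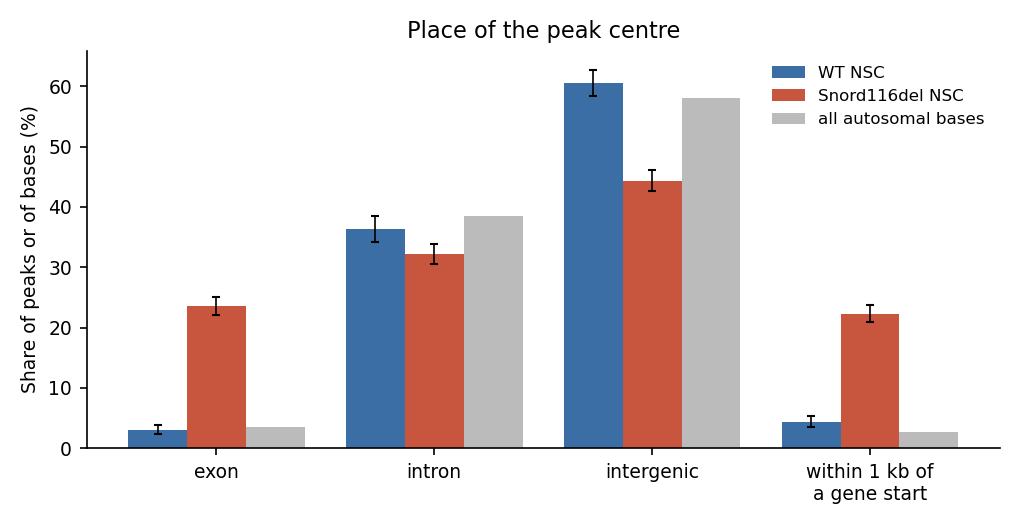
Share (vertical axis, %) of peak centres in exons, introns and intergenic sequence, and within 1 kb of a gene start, for WT NSC (blue) and *Snord116del* NSC (red) with 95% exact binomial intervals, beside the share of all autosomal bases in each class (grey). Exons take 3.04%, 23.6% and 3.45%, and the kilobase around gene starts 4.39%, 22.3% and 2.67%.

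Genes were joined to a peak when it lay inside them or within 2 kb. Of 34653 autosomal genes, 667 had a WT NSC peak (1.92%) and 2057 a *Snord116del* NSC peak (5.94%), and 117 had both (0.338%), which is 17.5% of the WT genes and 5.69% of the *Snord116del* genes. The genes with peaks of both were long, with a median of 181 kb, where genes with a WT peak had 45.7 kb, genes with a *Snord116del* peak 21.4 kb and all autosomal genes 5.92 kb. Protein-coding genes were 75.4% of the WT genes and 83.1% of the *Snord116del* genes, beside 61.8% of all autosomal genes.

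The genes with the most WT NSC peaks were those of the chromosome 4 stretch. *Gm16889* had 73 WT and 3 *Snord116del* peaks, *Gm17317* had 63 and 2, *Gm17452* had 35 and 0, *2610036A22Rik* had 26 and 0, and *Gm13139* had 16 and 0. *Gm17317* lies within *Gm16889* on the other strand, so its 63 peaks are among the 73. *C130026I21Rik* on chromosome 1 had 23 WT and 3 *Snord116del* peaks. Nearly all of these peaks were outside exons: of those in the 8 genes with the most WT peaks, *Gm17452*, *2610036A22Rik* and *Gm13242* had 1 in an exon each and *Gm13139* had 3.

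The genes with the most *Snord116del* NSC peaks had few each, apart from 1. *Gm20388*, a model of 4435 kb on chromosome 8 that spans the 5S rRNA array, had 64 *Snord116del* and 6 WT peaks. *Gm10406* had 5 *Snord116del* and 6 WT peaks, and *Gm13279* and *Gm17612*, which overlap on chromosome 4, had the same 5 and no WT peak. *Unc5c*, a receptor for the axon guidance protein netrin, had 4 *Snord116del* peaks and no WT peak, with a strongest fold of 38.5. *Gm2420*, a pseudogene on chromosome 5, had 4 *Snord116del* and 2 WT peaks. *Gm13145*, inside the chromosome 4 stretch, had 8 WT peaks and 1 *Snord116del* peak, and *Pisd-ps2* on chromosome 17 had 5 and 3.

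The strongest WT peak, at chr15:58306610-58306819 with a fold of 56.6, was intergenic, 34888 bp from the nearest start, that of *Fer1l6*, and its central bases occurred 68 times. The next, in an intron of *Fam120a*, which encodes an RNA-binding protein, had a fold of 51.2 and is the WT sequence shown above. Peaks in introns of *Bcl11a*, a zinc finger transcription factor, and of *Cog5*, a subunit of the Golgi tethering complex, had a fold of 50.3. Of the 8 strongest *Snord116del* peaks, that at chr3:22629267-22629484 had the highest fold, 71.8, and 759 copies of its central bases. The peak in an intron of *Atf2*, a transcription factor that binds cyclic AMP response elements, had a fold of 70.1, and a WT peak of fold 43.1 lay in the same gene 24049 bp away. The peak over n-R5s194 had a fold of 63.1 in *Snord116del* and 37.7 in WT.

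Lists of genes chosen by family or role were counted against those shares of all genes, 1.92% in WT and 5.94% in *Snord116del*. Members of a family can share 1 peak where they are neighbours, and long genes offer more room. Of 435 vomeronasal receptor genes 21 had a WT peak (4.83%) and 2 a *Snord116del* peak (0.460%); *Vmn1r112* had 6 WT peaks and *Vmn2r47* had 3, none in an exon. Olfactory receptors, a family of similar build, had few in either: 2 and 3 of 1243. Of 367 *Zfp* genes 8 had a WT peak (2.18%), with 10 at *Zfp534* and 6 at *Zfp600*, and 22 had a *Snord116del* peak (5.99%), with at most 2 per gene.

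Of 70 histone genes, 20 had a *Snord116del* peak (28.6%, 18.4 to 40.6), beside 5.94% of all genes. None had a WT peak, which allows up to 4.29%, a limit that lies above the 1.92% of all genes. They are short genes, with a median of 0.531 kb, packed side by side: *Hist1h2ao*, *Hist1h2bq* and *Hist1h4m* on chromosome 13 each had 2 peaks with a strongest fold of 31.5, and lie within a few kilobases of each other. Of 307 genes annotated as rRNA, 52 had a *Snord116del* peak (16.9%, 12.9 to 21.6) and 10 a WT peak (3.26%, 1.57 to 5.91), and all 10 were among the 52. In the array of chromosome 8, n-R5s128, n-R5s100 and n-R5s146 had 4 *Snord116del* peaks each and n-R5s102 and n-R5s103 had 2 WT peaks each. Of the genes for cytosolic ribosomal proteins, 6 of 76 had a *Snord116del* peak (7.89%), among them *Rps21* and *Rpl27a*, and 0 had a WT peak, which allows up to 3.95%.

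Neuronal gene families had more *Snord116del* than WT peaks, as did the genes at large. Of 54 genes for neuronal adhesion and synapse organisers, with a median length of 513 kb, 19 had a *Snord116del* peak (35.2%, 22.7 to 49.4) and 7 a WT peak (13.0%, 5.37 to 24.9), and 5 had both. *Dlgap1*, a scaffold of the postsynaptic density, had 4 *Snord116del* peaks, 1 of them in an exon, and *Erbb4*, a neuregulin receptor, and *Lsamp*, a cell adhesion protein, had 2 each. *Csmd1* had 2 of each list. Of 45 glutamate and GABA receptor genes 7 and 3 had a peak: *Grid1* had 4 *Snord116del* peaks and *Gabrg1* had 3. Of 94 potassium channel genes 15 had a *Snord116del* peak (16.0%), among them *Kcnk4* with 3 and *Kcnb2* with 2, and 2 a WT peak (2.13%), *Kcnip4* and *Kcnh6*. Of 59 cadherin and protocadherin genes 10 and 1 had one, the WT gene being *Cdh18* with 3 peaks.

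Genes that mark the cell types of the brain were few and gave few peaks. Of 11 neuron markers *Nefl* and *Nefm*, which encode neurofilament subunits, had a *Snord116del* peak, and these are neighbouring genes with a peak of the same fold, 21.0. *Slc1a2*, the glutamate transporter of astrocytes, had 1 WT peak of fold 37.7, *Olig1*, an oligodendrocyte transcription factor, 1 *Snord116del* peak in an exon, and *Cldn5*, a tight junction protein of endothelium, 1 in an exon. The 7 microglia markers and the 9 nuclear long noncoding RNAs had none, which allows up to 42.9% and 33.3%, so lists this short say little. Of 10 core clock genes *Clock* had 2 *Snord116del* peaks outside exons and *Dbp*, a clock-controlled transcription factor, 2 in exons, and no clock gene had a WT peak.

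Small RNA genes other than rRNA had few peaks. Of 1458 snoRNA genes 15 had a WT peak (1.03%), 11 of them the SNORD116 copies, and 12 a *Snord116del* peak (0.823%); *Snord37*, which lies in an intron of *Eef2*, had both. Of 1468 miRNA genes 5 and 24 had a peak, among them *Mir709* with 3 *Snord116del* peaks, of 1331 snRNA genes 1 and 6, and of 458 genes of other small RNAs (misc_RNA) 0 and 2, 1 of them 7SK. Of 1232 lincRNA genes 30 (2.44%) and 78 (6.33%) had one, and of 4055 pseudogenes 64 (1.58%) and 81 (2.00%).

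The lists shared few sites. A *Snord116del* peak was within 10 kb of 129 WT peaks (6.43%, 5.40 to 7.59), and a WT peak within 10 kb of 137 *Snord116del* peaks (4.27%, 3.60 to 5.03). Direct overlap was seen for 27 WT peaks (1.35%) and 26 *Snord116del* peaks (0.811%). WT peaks near a *Snord116del* peak had a median GC content of 47.1%, and the rest 40.4%, and *Snord116del* peaks near a WT peak had 59.7% and the rest 61.2%. The overlapping pairs included the 5S rRNA genes n-R5s194 and n-R5s33, the coding sequence of *Eef2* beside *Snord37*, the pseudogenes *Pisd-ps1* and *Pisd-ps2*, and introns of *Pde1a*, *Itga9*, *Thsd7a* and *Inpp4b*. At *Eef2*, which encodes a translation elongation factor, the *Snord116del* peak chr10:80641270-80641640 had a fold of 31.5 and the WT peak inside it, chr10:80641425-80641544, a fold of 31.4. At *Pde1a*, a cyclic nucleotide phosphodiesterase gene, the folds were 49.04 in *Snord116del* and 31.43 in WT.

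Each NSC list overlapped *116HG* lists of its own genotype more than it overlapped the other NSC list. Of the *Snord116del* NSC peaks, 614 (19.2%, 17.8 to 20.6) overlapped a peak of *Snord116del* *116HG*, although that list has only 1185 autosomal peaks, and 603 of those 1185 (50.9%, 48.0 to 53.8) overlapped a *Snord116del* NSC peak. Of the WT NSC peaks, 19 (0.947%) overlapped *Snord116del* *116HG*, 291 (14.5%, 13.0 to 16.1) WT *116HG* replicate 2 and 105 (5.23%, 4.30 to 6.30) replicate 1. Of the *Snord116del* NSC peaks, 67 (2.09%) overlapped replicate 2 and 396 (12.4%, 11.2 to 13.5) replicate 1. Replicate 1 has 74621 autosomal peaks and replicate 2 has 9221, so a list can meet replicate 1 more often through its size. All 5 lists were called against the same WT input.

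**Figure D5:**
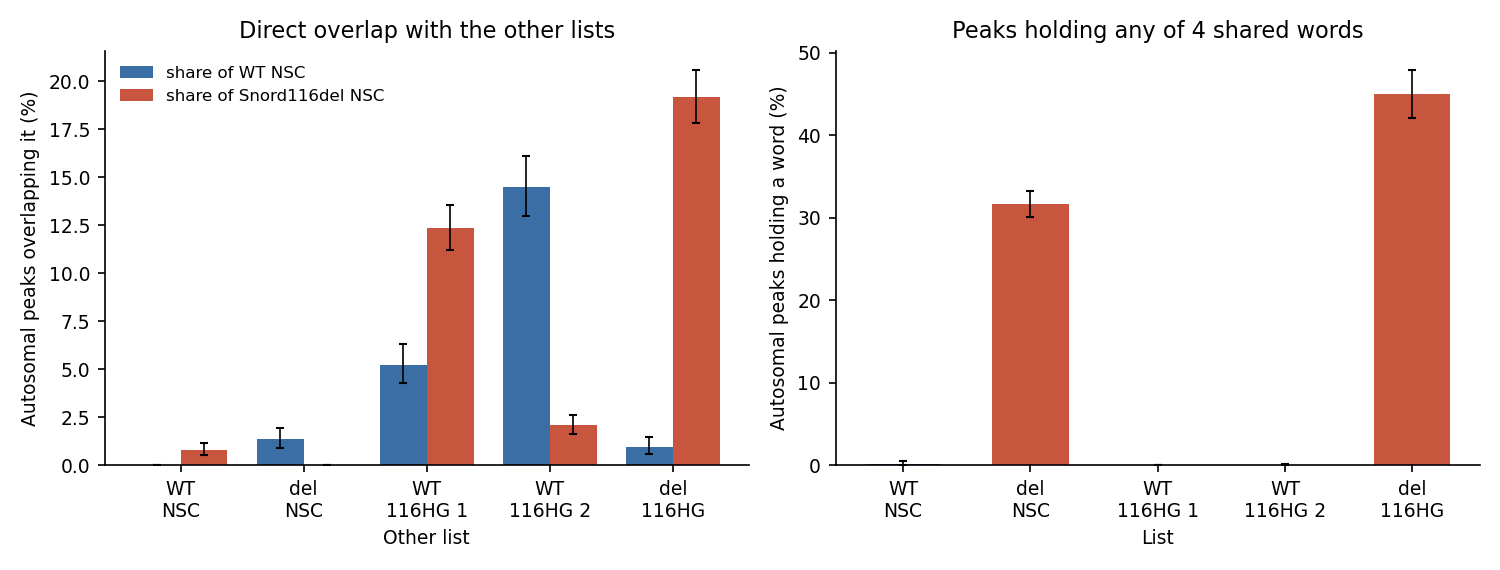
Left, share (vertical axis, %) of the autosomal peaks of WT NSC (blue) and *Snord116del* NSC (red) that overlap a peak of each other list (horizontal axis; del stands for *Snord116del*, and a list is not set against itself). Right, share of the peaks of each list that hold at least 1 of the 4 *Snord116del* NSC words, in blue for WT and red for *Snord116del* libraries. Bars are 95% exact binomial intervals; the words are in 31.7% and 45.0% of the *Snord116del* lists and in at most 0.199% of the WT lists.

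The transcript levels of the genes near peaks were read from the RNA-seq table of adult cortex, which gives 1 FPKM value (fragments per kilobase of transcript, scaled to library size) per group, for WT and *Snord116del* mice at Zeitgeber times (Zt) +6 and +16. These are other tissue samples than the ChIRP libraries, and the values carry no spread between mice. Of its 23235 genes, 20671 matched 1 autosomal gene by symbol. In WT cortex at Zt +6 the median was 0.946 FPKM (0.797 to 1.20) over 448 genes with a WT NSC peak, 1.55 FPKM (1.39 to 1.70) over 1673 genes with a *Snord116del* NSC peak and 0.646 FPKM over all matched genes. In *Snord116del* cortex at Zt +6 the medians were 2.07, 2.85 and 1.23 FPKM. At Zt +16 they were 0.645, 1.11 and 0.457 FPKM in WT and 0.819, 1.54 and 0.590 FPKM in *Snord116del*. Genes with a *Snord116del* NSC peak thus had the highest median in each of the 4 groups, and the share with at least 1 FPKM in WT at Zt +6 was 58.2% (55.8 to 60.5), beside 49.1% (44.4 to 53.8) for genes with a WT NSC peak and 43.2% for all. For the mean over the 4 groups the medians differed by 0.727 FPKM (0.398 to 1.10). With genes under a mean of 1 FPKM left out, the interval of the difference between the lists, -0.0449 to 1.37 FPKM, included 0. It also did so for genes with the peak centre in an exon, with a difference of 0.970 FPKM (-1.17 to 1.88).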

How the data were processed

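ChIRP-seq reads were aligned to mm9 by the authors, and peaks were called in each library separately against WT input. Submitters' processing notes name CASAVA 1.8.0, Bowtie2 2.0.0, MACS 1.4.2, TopHat2 2.0.5 and Cuffdiff 2.0.2. The deposited value of a peak is its fold over input, a ratio, which was at least 20.04 in the WT NSC and 20.01 in the *Snord116del* NSC list. By the methods of the study, peaks were filtered by false discovery rate and by a lowest fold over input. WT *116HG* replicate 2 has positions only. The lists hold no read counts per peak. The methods of the study give aligned reads per library, and both their number and their share of all reads were lower for WT NSC than for *Snord116del* NSC; the part of this in the differences between the lists was not tested. How reads that match several places were treated is not given in the sources used here. The RNA-seq table gives FPKM as deposited, 1 value per group from Cuffdiff, and its log2 fold changes and q-values are the authors' comparison and were not used.

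Peak starts were read as 0-based. Sequence came from NCBIM37 and genes from GENCODE M1. Each peak was described by width, GC content, exact genome copies of its 32 central bases on both strands, perfect tandem runs of at least 20 bases (unit of at most 6), the place of its centre and genes within 2 kb. SNORD115 and SNORD116 symbols were matched in either case. With 1 library per genotype no test was made. Shares carry exact Clopper-Pearson 95% intervals, medians carry order-statistic intervals, differences of shares carry Newcombe's interval, and a count of 0 is given the limit of 3 counts. All cover counting error only.

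Named genes were the 8 with the most peaks and those at the 8 strongest peaks of each list, the 10 genes with most peaks of both, domain genes with a peak, and up to 4 members per gene list. Some genes that this rule names are not reported here. Members, gene lists and comparisons were chosen with earlier results of these data known. Sequences that share a run of 50 bases with chromosome 18, and the words of 32 bases, were not printed. The words were chosen on the other autosomes and counted on all. The calculations, made with numba 0.67.0, scipy 1.17.1, pandas 2.3.3 and numpy 2.4.6 (Python 3.11.15), were checked on simulated data. Alternatives were stronger peaks, X and Y included, merged peaks, the densest autosome left out, peaks of 100 to 500 bp, unique centres and other distances. Leaving out peaks with a *Snord116del* word, and searching words in the 200 central bases, were added after seeing the data.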

Additional observations from a re-analysis of the deposited data

How the results depend on the processing

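No paired analysis was possible because each genotype has 1 NSC library. The 18 results were recomputed under 107 alternatives in all. None of the differences between the lists changed direction. Numbers of genes, overlaps and word shares cannot be negative, so they could not change direction. Of all alternatives, 45 moved by less than the interval of the main value (counts by less than 1.5 times). The 62 that moved by more are given here, with differences as *Snord116del* minus WT, in percentage points for shares and GC content. The cause of a move was not tested. With peaks at or above the median fold of their list, the differences were 251 bp in width, 21.1 in GC content, -10.1 in multi-copy centres, -12.5 in tandem runs, 13.6 in exons, -6.56 in intergenic sequence and 12.3 within 1 kb of a start. Nearby genes numbered 407 in WT, 1022 in *Snord116del* and 53 in both, and 5.28% of WT and 3.47% of *Snord116del* peaks were near the other list. With X and Y included, the differences were 22.0 in GC content, -33.2 in multi-copy centres, -2.73 in tandem runs and -21.2 in intergenic sequence, and 4.83% of WT peaks were near the other list. Merged at 10 kb, the differences were -11.2 in tandem runs and -19.2 in intergenic sequence, and 3.13% of *Snord116del* peaks were near the other list. Without chromosome 4 they were 19.3 in GC content, -9.38 in tandem runs and -20.2 in intergenic sequence. With widths of 100 to 500 bp they were 159 bp in width, -22.6 in multi-copy centres, -4.76 in tandem runs, 13.1 in exons, -8.63 in intergenic sequence and 13.3 near starts, with 1221 *Snord116del* genes and 5.22% of WT peaks near the other list. With unique centres only they were 22.8 in GC content, 38.5 in exons, -33.3 in intergenic sequence and 33.5 near starts, with 204 WT genes, 24 genes in both, and 5.11% of WT and 1.43% of *Snord116del* peaks near the other list. Without peaks that held a *Snord116del* word they were 19.4 in GC content, -47.9 in multi-copy centres, -4.67 in tandem runs, 31.4 in exons, -29.5 in intergenic sequence and 28.0 near starts. A window of 200 bp gave 22.0 in GC content and -12.0 in tandem runs, and 50 central bases gave -26.3 in multi-copy centres. Any overlapping base gave 29.97 in exons. Protein-coding genes gave -22.0 in intergenic sequence and 16.1 near starts, and starts within 5 kb gave 14.0. Genes within 10 kb numbered 1064 in WT and 198 in both. Direct overlap held for 1.35% of WT and 0.811% of *Snord116del* peaks, a gap of 1 kb for 2.64% and 1.65%, and one of 100 kb for 27.3% and 15.5%. Words in the 200 central bases were in 24.1% of *Snord116del* NSC and 34.2% of *Snord116del* *116HG* peaks.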
